A study of Mus musculus with 70 samples.

Results

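The corticotropin-releasing hormone (CRH) and urocortin system was followed through 6 of its genes: the ligands Crh, Ucn and Ucn3, the receptors Crhr1 and Crhr2, and the binding protein Crhbp. They were taken by name from the 34677 genes with a deposited gene-level value, and all 6 were found. Expression had been measured by RNA sequencing in 70 mouse libraries, of which 57 came from 18 brain regions of male C57BL/6NTac mice on a chow diet at P56, 9 from 4 brain regions of embryos of the same strain at E14.5, and 4 from 2 mouse embryonic stem cell (mESC) clones of C57BL/6 origin, B6-1 and B6-2. The mice were untreated and carried no engineered allele. The brain tissue was punched from frozen sections, and each brain library pooled tissue of several animals, apart from 1 library of the nucleus accumbens that came from a single mouse and that the labels do not single out. The spread between libraries is therefore mostly a spread between pools, and no label says that the libraries of a region came from different animals. The pools of the adult regions together needed more animals than were used, so that the same mice supplied several regions. The labels do not tie libraries to animals, and the tests treat libraries as independent.

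The adult regions were the anterior cingulate area (ACA), frontal pole cortex (FRP) and entorhinal area (ENT) of the cerebral cortex, the nucleus accumbens (ACB), the paraventricular (PVH), arcuate (ARH), ventromedial (VMH) and dorsomedial (DMH) nuclei and the lateral area (LHA) of the hypothalamus, the ventral tegmental area (VTA), the cerebellar nuclei (CBN), the dorsal-vagal complex (DVC), the parabrachial nucleus (PB), the nucleus of the solitary tract (NTS), and the cerebellar cortex as central lobule II (CENT2), culmen lobules IV-V (CUL4-5), uvula (UVU) and flocculus (FL). The embryonic regions were the forebrain (F), the terminal and peduncular hypothalamus (THy-PHy), the midbrain (M) and the hindbrain (H). Groups had 2 to 4 libraries each, except F with 1. The total estimated count per library ran from 9074581 to 22229582, with a median of 17016935. VTA 1, the first VTA library, stood apart with 39.6% of its TPM on mitochondrial genes, against 2.69% to 22.6% in the other libraries, where the highest was H 1, also the shallowest library. Defining markers were highest in the labelled region for ARH (Agrp, Pomc), LHA (Hcrt, Pmch), VMH (Nr5a1, Fezf1), VTA (Th, Slc6a3) and ACB (Drd1, Ppp1r1b). Of the PVH markers, Oxt was highest in the PVH, Avp in the ARH and Sim1 in the DMH, neither DMH marker (Ppp1r17, Grp) was highest in the DMH, and neither PB marker (Calca, Foxp2) in the PB. Cga, a marker of the anterior pituitary next to the ARH, had a mean of 78.9 TPM in the ARH and 1.62 TPM in the ENT, the next region. The pituitary marker Prl had 1.27 TPM in the ARH and 3.80 TPM in the ENT. The part of pituitary tissue in the ARH values was not tested.

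CRH is the hypothalamic peptide that starts the hormonal stress response: neurons of the PVH release it towards the anterior pituitary, where it drives the release of corticotropin. The urocortins are related peptides. CRH acts mainly through the receptor CRHR1, urocortin (Ucn) binds both receptors, and urocortin 3 (Ucn3) is selective for CRHR2. Both receptors couple to the stimulatory G protein and cyclic AMP. CRHBP is a secreted protein that binds CRH and urocortin outside the cell. Sites outside the hypothalamus make Crh, Ucn and Crhr2. CRH and the urocortins lower food intake when given into the brain.

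The 3 ligands are encoded on different chromosomes and arose as one peptide family, and the mature peptide lies at the end of each precursor. To show how far their messages can be told apart by short reads, the last 43 codons before the stop codon are printed below from the GENCODE transcripts, 5′ to 3′ on the coding (minus) strand, each in the second of 2 exons. They lie in build GRCm38 at chr3:19693916-19694044 for Crh, chr5:31138155-31138283 for Ucn and chr13:3941159-3941287 for Ucn3. Capitals mark bases that are identical to Crh in a global alignment.

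Crh: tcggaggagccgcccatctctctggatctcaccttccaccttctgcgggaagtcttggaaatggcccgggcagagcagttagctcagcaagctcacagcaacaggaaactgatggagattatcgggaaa

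Ucn: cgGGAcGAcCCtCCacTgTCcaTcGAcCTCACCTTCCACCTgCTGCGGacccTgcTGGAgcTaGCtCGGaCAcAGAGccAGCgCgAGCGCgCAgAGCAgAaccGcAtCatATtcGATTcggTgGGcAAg

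Ucn3: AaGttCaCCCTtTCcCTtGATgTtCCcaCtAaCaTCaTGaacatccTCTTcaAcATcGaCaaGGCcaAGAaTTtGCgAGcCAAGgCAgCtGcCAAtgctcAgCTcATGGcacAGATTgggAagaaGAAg

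In this stretch Ucn had 63.6% and Ucn3 55.8% of its 129 bases as in Crh. The longest run of bases that any of the ligand transcripts shared was 14, between Crh and Ucn, and the receptors Crhr1 and Crhr2 shared a run of at most 24. Reads had 33 bases, and no word of 31 bases in the 16 transcripts of the 6 genes occurred in a transcript of another gene, on either strand. In GRCm38 the whole genes span chr3:19693401-19695396 (Crh), chr5:31138063-31138829 (Ucn) and chr13:3940688-3945349 (Ucn3), the receptors chr11:104132855-104175523 (Crhr1, plus strand) and chr6:55090049-55133016 (Crhr2, minus strand), and the binding protein chr13:95431371-95444924 (Crhbp, minus strand). None of the 6 genes overlapped another annotated gene. The transcripts of Ucn, and likewise those of Crhbp, shared most of their words with each other.

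Levels are given as TPM, a share of all transcripts in a library that takes transcript length into account, so that levels of different genes can be set side by side. In bulk tissue, fewer expressing cells and less RNA per cell cannot be told apart.

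**Figure D1:**
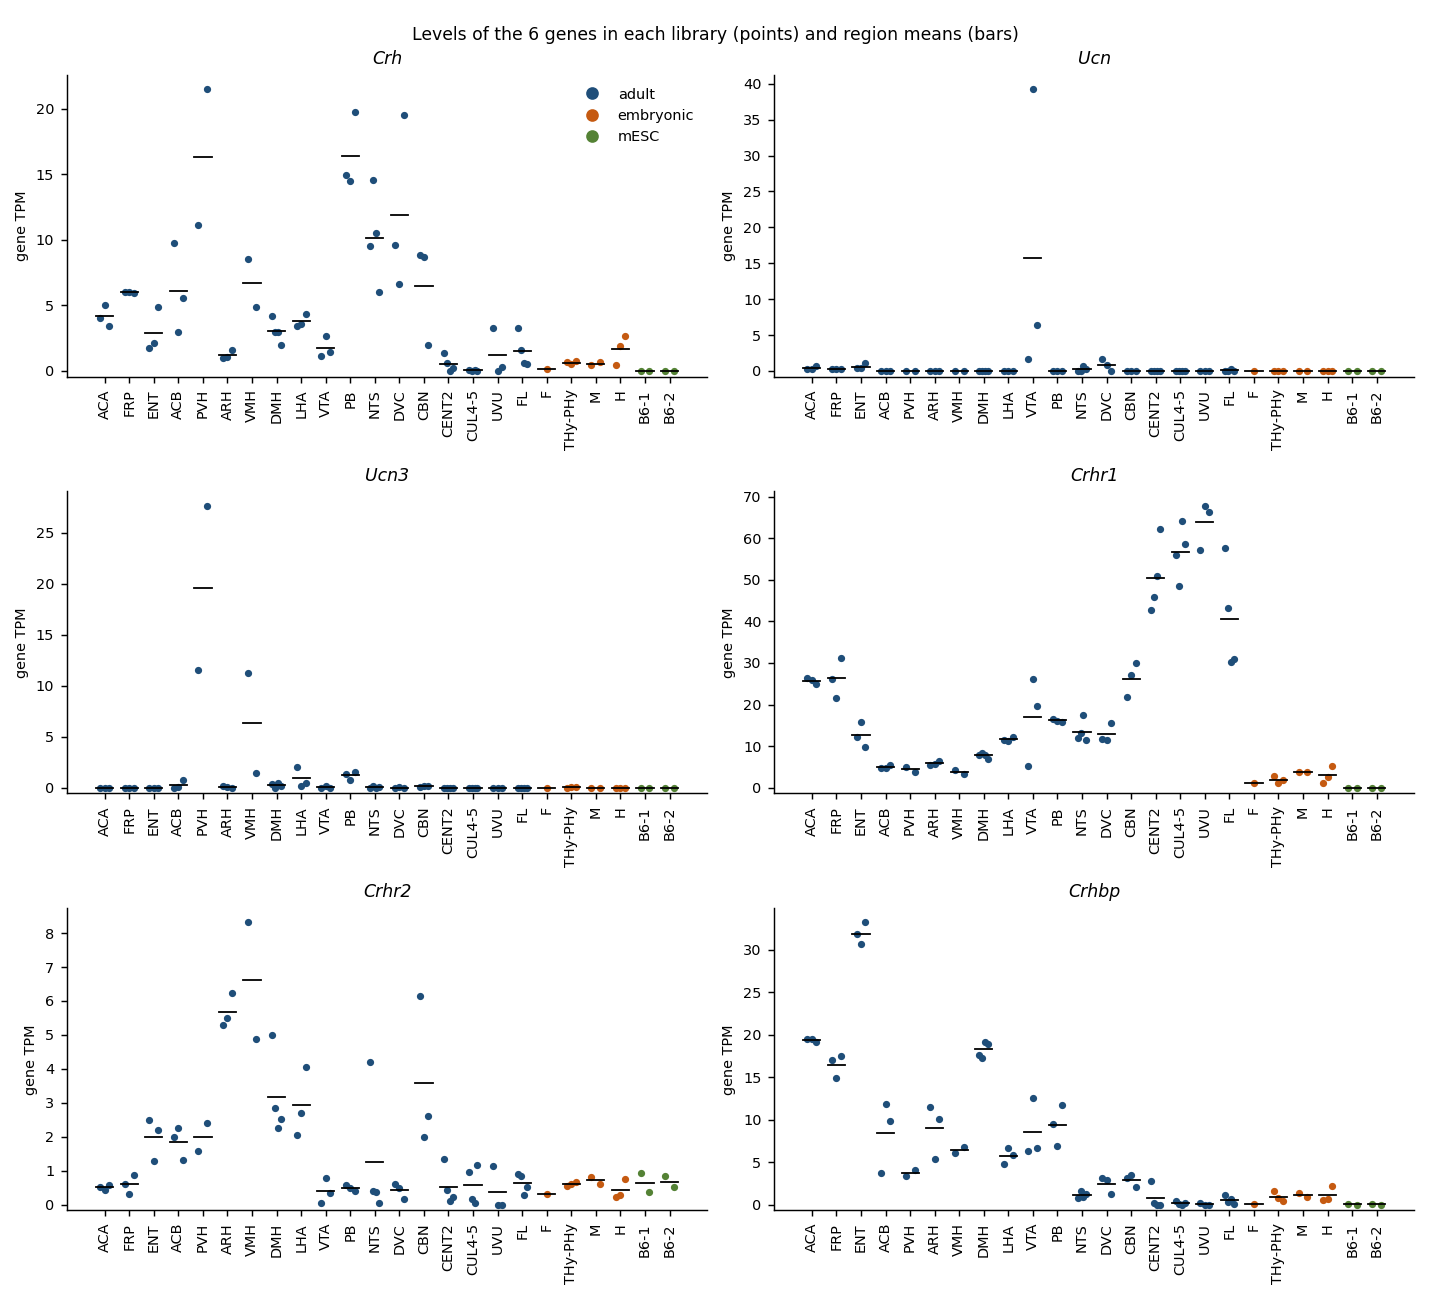
Gene TPM (vertical axes, linear, a scale for each gene) of the 6 genes in every library (points) of the 24 groups (horizontal axis), with the group mean as a bar and colours for adult, embryonic and mESC libraries. Ucn stood high in the VTA, Ucn3 in the PVH and VMH, Crhr1 in the cerebellar cortex (30.2 to 67.8 TPM), Crhr2 in the VMH and ARH and Crhbp in the ENT (30.6 to 33.2 TPM), while Crh was spread over the PVH, PB, DVC and NTS.

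Crh, the releasing hormone, was found over most of the adult brain, at a region mean of at least 1 TPM in 16 of 18 regions. The mean was 16.4 TPM ± 2.90 (SD, n = 3) in the PB and 16.3 ± 7.38 (n = 2) in the PVH, and the order of these 2 regions turned when PB 3 or PVH 1 was left out or the median was used. The PB libraries had 14.96 and 19.74 TPM in PB 1 and PB 3, with PB 2 just below PB 1, and the PVH libraries 11.1 and 21.5 TPM.

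The DVC followed with 9.63, 6.60 and 19.5 TPM. The NTS had 9.52, 14.6, 10.5 and 6.06 TPM. In these brainstem regions the libraries overlapped with each other and with the PVH, so that no order among the 4 leading regions can be read.

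Below them the VMH had 8.55 and 4.91 TPM, the CBN 8.88, 8.67 and 2.00 TPM, and the ACB 9.78, 2.94 and 5.60 TPM, each with libraries more than 1.5 times apart. In the FRP the libraries were close together (6.03, 6.02 and 5.94 TPM) and all above those of the ACA (4.07, 5.05 and 3.43 TPM), the one step of 17 in the order of regions at which libraries of neighbouring regions did not overlap. Crh was lowest in the culmen, where the 4 libraries held 0 or 1 read each.

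The PB and CBN libraries also held markers of the locus coeruleus, the noradrenergic nucleus beside the PB. Dbh, the enzyme that makes noradrenaline, had 89.02, 92.7 and 163 TPM in the PB and 2.32, 113.6 and 57.5 TPM in the CBN, and Slc6a2, the noradrenaline transporter, had 41.6, 44.8 and 84.6 TPM in the PB and 1.69, 50.8 and 26.35 TPM in the CBN. PB 3 was highest in both markers and in Crh, whereas CBN 1, which had the most Crh of the CBN, was lowest in both markers. In the NTS and DVC the markers were lower, with Dbh at 3.38 to 20.7 TPM and Slc6a2 at 0.31 to 8.63 TPM. The part of the locus coeruleus in the Crh levels was not tested.

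Counts were compared with edgeR, each region of a side having equal weight, and a call needed both a log2 fold change above 1 in size and an adjusted p below 0.05. The p-values rest on the spread between libraries within regions and leave out how far the regions of one side differ. Against the 4 other hypothalamic nuclei, Crh was higher in the PVH by a log2 fold change of 2.40 ± 0.48 (SE; edgeR adjusted p = 4.51e-04), and both PVH libraries lay above the 12 others, which had 1.02 to 8.55 TPM. Without PVH 2 the log2 fold change was 1.89 and no longer passed (edgeR adjusted p = 0.123). The hypothalamus as a whole did not pass against the other 13 adult regions (log2 fold change 0.54 ± 0.25, edgeR adjusted p = 0.0665).

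The hindbrain nuclei PB, NTS and DVC together were higher in Crh than the other 15 adult regions, by 2.41 ± 0.24 on the log2 scale (edgeR adjusted p = 1.80e-12), with means of 12.8 and 4.12 TPM. The cerebellar cortex was lower than the other adult regions (log2 fold change -3.58 ± 0.33, edgeR adjusted p = 1.27e-13), and the CBN were higher than the cerebellar cortex by 3.90 ± 0.47 (edgeR adjusted p = 1.24e-09). In the ACB the difference from the other adult regions stood just inside the fold threshold, at 0.99 ± 0.40 (edgeR adjusted p = 0.0446), and passed it without ACB 2 (1.32, edgeR adjusted p = 0.0233). The plain means there were 6.11 TPM in the ACB and 5.54 TPM in the other regions.

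Ucn, the first urocortin, had 166 of its 191 adult reads in the VTA libraries, with 1.61, 39.3 and 6.42 TPM there, from 9, 133 and 24 reads. The spread among these 3 libraries was wide (15.8 TPM ± 20.5, SD), and VTA 2 held most of the reads. The highest value outside the VTA was 1.73 TPM in DVC 1, from 5 reads, which was below VTA 2 and VTA 3 and just above VTA 1. With mitochondrial genes taken out of the totals, VTA 1 had 2.66 TPM and DVC 1 had 1.89 TPM, so that this order turned.

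Ucn was at 0 in all libraries of 11 adult regions, the whole hypothalamus among them, and in every embryonic and mESC library. Each of the 9 cortical libraries held Ucn reads, but only 1 to 4 of them, for 0.283 to 1.10 TPM. A count of 0 allows up to 3 reads per library, so that values of 1 to 3 reads cannot be told from it. This limit covers counting error only.

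Since reads were counted without molecular identifiers and 34 libraries of 11 regions were at 0, the size of the VTA difference has a lower bound only: the VTA mean of 3.06 CPM (counts per library total, scaled as CPM) was at least 16.8-fold higher than the floor of 3 reads per library in those regions. This bound fell to 4.83-fold without VTA 2, whose omission left a VTA mean of 4.01 TPM. The fitted log2 fold change of 7.61 against the 17 other adult regions (edgeR adjusted p = 3.62e-11) depends on the small count that edgeR adds to each 0. On log2(TPM + 0.5), limma gave 3.80 ± 0.31 (limma adjusted p = 6.66e-14), and DESeq2 gave 7.29 with an adjusted p of 0.0913. The call of Ucn in the cortex (log2 fold change 2.48, edgeR adjusted p = 6.26e-04) rests on those 1 to 4 reads per library, and limma put it at 0.49 ± 0.19, under the fold threshold.

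The Edinger-Westphal nucleus, a known site of urocortin neurons, lies in the midbrain close to the VTA and expresses Cartpt. Cartpt, which was chosen after values were seen, had 75.8, 284 and 49.4 TPM in VTA 1, VTA 2 and VTA 3. VTA 2 was highest in both Ucn and Cartpt, while VTA 1 lay below VTA 3 in Ucn and above it in Cartpt. Of the dopaminergic markers, Th had 239, 778 and 901 TPM and Slc6a3 173, 521 and 556 TPM. Both were highest in VTA 3 and lowest in VTA 1, the library with 39.6% mitochondrial TPM. The part of neighbouring nuclei in the Ucn values was not tested.

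Ucn3, the ligand selective for CRHR2, was highest in the PVH with 11.6 and 27.7 TPM. The VMH libraries were far apart, at 11.2 and 1.41 TPM (133 and 16 reads). The remaining regions had lower means, with the PB at 1.39, 0.80 and 1.57 TPM and the LHA at 2.08, 0.16 and 0.52 TPM next in order.

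In 7 adult regions (ACA, FRP, ENT and the 4 parts of the cerebellar cortex) all 24 libraries were at 0 for Ucn3. The PVH mean of 13.9 CPM was at least 78.8-fold higher than the floor of 3 reads per library there, and the VMH mean of 4.53 at least 25.6-fold higher. The VMH bound was 5.79-fold without VMH 1 and 45.5-fold without VMH 2, and the PVH bound 47.4-fold without PVH 2. No library outside the hypothalamus and PB held more than 11 reads, the value of ACB 3.

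Against the other 4 hypothalamic nuclei, Ucn3 was higher in the PVH by a log2 fold change of 5.03 ± 0.64 (edgeR adjusted p = 2.17e-06), with DESeq2 at 5.11 and an adjusted p just above 0.05. In the VMH it was higher by 2.95 ± 0.68 (edgeR adjusted p = 0.0106), although DESeq2 gave an adjusted p of 0.384. That VMH difference rested on VMH 1, since without it the log2 fold change was 0.78 (edgeR adjusted p = 0.872). The PB was higher than NTS and DVC by 4.61 ± 0.97 (edgeR adjusted p = 0.00198), all 3 PB libraries being above the 7 others, and DESeq2 gave an adjusted p of 0.0521.

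VMH 1 also carried more of the PVH neuropeptides than VMH 2. Oxt, the oxytocin precursor, had 599 TPM in VMH 1 and 52.5 TPM in VMH 2, against 454 and 2075 TPM in the PVH. Avp, the vasopressin precursor, had 409 and 7.61 TPM in the VMH and 221 and 1069 TPM in the PVH. The VMH markers Nr5a1 (45.9 and 21.4 TPM) and Fezf1 (62.0 and 28.7 TPM) were higher in VMH 1 as well, and Nr5a1 was near 0 in the PVH (0.0384 and 0.0405 TPM). The part of PVH tissue in the Ucn3 of the VMH was not tested.

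**Figure D2:**
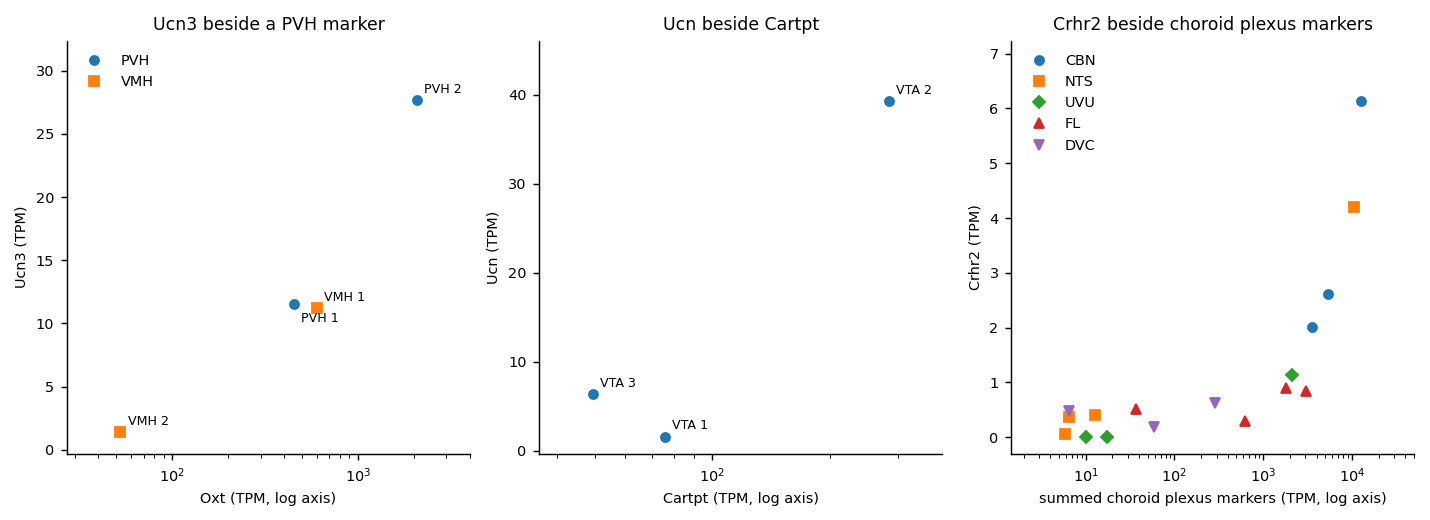
Each panel sets a gene (vertical axis, TPM) beside markers of a neighbouring tissue (horizontal axis, TPM, log scale) in single libraries: Ucn3 beside Oxt in the PVH and VMH, Ucn beside Cartpt in the VTA, and Crhr2 beside the sum of 5 choroid plexus markers in the CBN, NTS, UVU, FL and DVC. VMH 1 lies beside PVH 1, VTA 2 is highest in both of its genes, and the 4 libraries with more than 2 TPM of Crhr2 each had at least 3529 TPM of the choroid plexus markers.

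Crhr1, the main receptor for CRH, was read in every adult library, with at least 64 reads. It was highest in the cerebellar cortex: 57.2, 67.8 and 66.4 TPM in the UVU, 55.9, 48.4, 64.1 and 58.7 TPM in the CUL4-5, 42.8, 45.9, 50.9 and 62.1 TPM in the CENT2, and 57.7, 43.1, 30.2 and 31.1 TPM in the FL. Libraries of these 4 parts overlapped from each part to the next. The cerebellar cortex was higher than the other 14 adult regions by 2.07 ± 0.07 on the log2 scale (edgeR adjusted p = 7.83e-30).

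The FRP with 26.1, 21.6 and 31.2 TPM, the CBN with 21.7, 27.1 and 29.9 TPM and the ACA with 26.5, 25.8 and 24.9 TPM followed, and their libraries overlapped. The CBN were lower than the cerebellar cortex by 0.79 ± 0.17 on the log2 scale, inside the fold threshold, with no overlap of libraries (edgeR adjusted p = 1.43e-04). Within the cortex the ENT had 12.3, 15.8 and 9.90 TPM, all below the ACA and FRP, a log2 fold change of -0.99 ± 0.20 (edgeR adjusted p = 2.26e-04) that limma put at -1.03 and thus past the fold threshold.

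The hypothalamus and the ACB were lowest in Crhr1. The means were 11.7 TPM in the LHA, 7.82 in the DMH, 5.85 in the ARH, 4.46 in the PVH and 3.69 in the VMH, with SDs of 0.41 to 0.81, and 5.02 ± 0.40 in the ACB. The LHA libraries lay above all of the DMH, and those of the DMH above all of the ARH, while the ranges of neighbouring regions overlapped from the ARH downwards. The hypothalamus was lower than the other 13 adult regions by a log2 fold change of -1.96 ± 0.10 (edgeR adjusted p = 6.49e-23) and the ACB lower than the 17 others by -1.74 ± 0.19 (edgeR adjusted p = 9.00e-11). In the VMH the difference from the other nuclei was -0.96 ± 0.25 (edgeR adjusted p = 0.0155), just under the fold threshold.

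In the VTA, Crhr1 had 5.28 TPM in VTA 1 but 26.2 and 19.6 TPM in the other libraries. With mitochondrial genes taken out of its total, VTA 1 had 8.75 TPM, still below the uncorrected values of the others. The log2 fold change of the VTA was 0.46 in the fit to counts but -0.16 on log2(TPM + 0.5), on which scale the median over all genes was shifted by -0.39, so that no direction is given.

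Crhr2, the receptor for the urocortins, was much lower. It was highest in the VMH with 8.31 and 4.89 TPM and in the ARH with 5.30, 5.50 and 6.22 TPM, and these libraries overlapped, with the ARH ahead once VMH 1 was left out. The DMH had 4.99, 2.85, 2.27 and 2.53 TPM and the LHA 2.05, 2.71 and 4.06 TPM. Outside the hypothalamus, the CBN had 6.13, 2.01 and 2.61 TPM, the ENT 2.50, 1.30 and 2.19 TPM and the ACB 1.99, 2.25 and 1.31 TPM. The PVH had 1.58 and 2.41 TPM, and the 10 other adult regions had means of at most 1.26 TPM. Markers of neighbouring nuclei were found in both leading regions. The VMH markers Nr5a1 and Fezf1 had means of 18.25 and 35.48 TPM in the ARH, beside 33.62 and 45.33 TPM in the VMH, and the LHA markers Hcrt and Pmch had 799 and 3525 TPM in the VMH, beside 1446 and 4539 TPM in the LHA. Their part in the Crhr2 levels was not tested.

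Against the other 13 adult regions the hypothalamus was higher in Crhr2 by a log2 fold change of 2.23 ± 0.28 (edgeR adjusted p = 1.67e-09), with means of 4.08 and 1.02 TPM. The VMH did not pass against the other nuclei (1.11 ± 0.64, edgeR adjusted p = 0.422). The ENT libraries lay above all of the ACA and FRP, yet the difference did not pass (1.71 ± 0.69, edgeR adjusted p = 0.102). The cerebellar cortex was lower (-1.62 ± 0.35, edgeR adjusted p = 5.48e-05), as was the VTA (-2.05 ± 0.77, edgeR adjusted p = 0.0284), where the call was lost without VTA 1 (-1.75, edgeR adjusted p = 0.142) or VTA 3 (-2.12, edgeR adjusted p = 0.0811).

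In the CBN and in 1 NTS library, Crhr2 went with markers of the choroid plexus, the epithelium that makes cerebrospinal fluid and lines the ventricle next to these nuclei. The NTS libraries had 4.20, 0.41, 0.37 and 0.05 TPM of Crhr2. The sum of 5 choroid plexus markers (Ttr, Folr1, Kl, Aqp1 and Clic6, chosen after values were seen) was 10670 TPM in NTS 1 and 5.79 to 12.7 TPM in the other 3, and in NTS 1 all 5 markers were above every other NTS library. In the CBN the sum was 12690, 3529 and 5395 TPM, in the order of the libraries' Crhr2. UVU 1, with 2107 TPM of the markers, had 1.14 TPM of Crhr2, and UVU 2 and UVU 3, with 17.2 and 10.06 TPM, had none. In the FL libraries the sum was 1801, 3055, 629 and 36.6 TPM, beside 0.89, 0.84, 0.29 and 0.52 TPM of Crhr2. CUL4-5 1 and CUL4-5 4 had 0.95 and 1.17 TPM of Crhr2 with only 9.46 and 10.35 TPM of the markers.

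The CBN were higher in Crhr2 than the cerebellar cortex by 2.94 ± 0.54 on the log2 scale (edgeR adjusted p = 7.11e-06). The part of the choroid plexus in this difference was not tested, since every CBN library held its markers. In the 14 hypothalamic libraries Ttr was at 0.10 to 3.85 TPM, far below the CBN, while Clic6 ran from 1.99 to 28.3 TPM. The hindbrain nuclei did not pass against the other adult regions with all libraries (-0.83 ± 0.39, edgeR adjusted p = 0.0727) and did so without NTS 1 (-1.64 ± 0.37, edgeR adjusted p = 1.52e-04).

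The balance of the receptors was described by the share of Crhr2 in the summed TPM of Crhr1 and Crhr2. The VMH was the only adult region in which Crhr2 was the larger part, at 66.6% and 60.4%. The ARH libraries were near balance and close to each other at 49.3%, 49.4% and 49.0%. Shares of 31.1% in the PVH, 28.2% in the DMH, 26.9% in the ACB, 19.8% in the LHA and 14.2% in the ENT followed as region means.

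In the ACA, FRP, PB, VTA and the 4 parts of the cerebellar cortex the mean share lay between 0.65% and 2.91%, in the DVC at 3.38%, in the NTS at 7.88% and in the CBN at 12.3%. The sum of both receptors ranged from 6.46 TPM in the PVH to 64.2 TPM in the UVU. In an exact two-sided permutation test over libraries, the VMH had a higher share than the other 4 nuclei (63.5% ± 4.34, n = 2, against 31.9% ± 12.5, n = 12; p = 0.022, adjusted over the 2 tests p = 0.022), where the smallest p in one tail was 0.011. The other nuclei do not share a common level. The difference was 28.56 and 34.69 percentage points with 1 of the VMH libraries left out, where the exact permutation test cannot go below p = 0.154 and so tells nothing. The cortex had a lower share than the hypothalamus in the same exact permutation test (6.11% ± 6.75, n = 9, against 36.4% ± 16.3, n = 14; p = 9.79e-06, adjusted p = 1.96e-05). These p-values treat libraries of one region as separate observations.

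**Figure D3:**
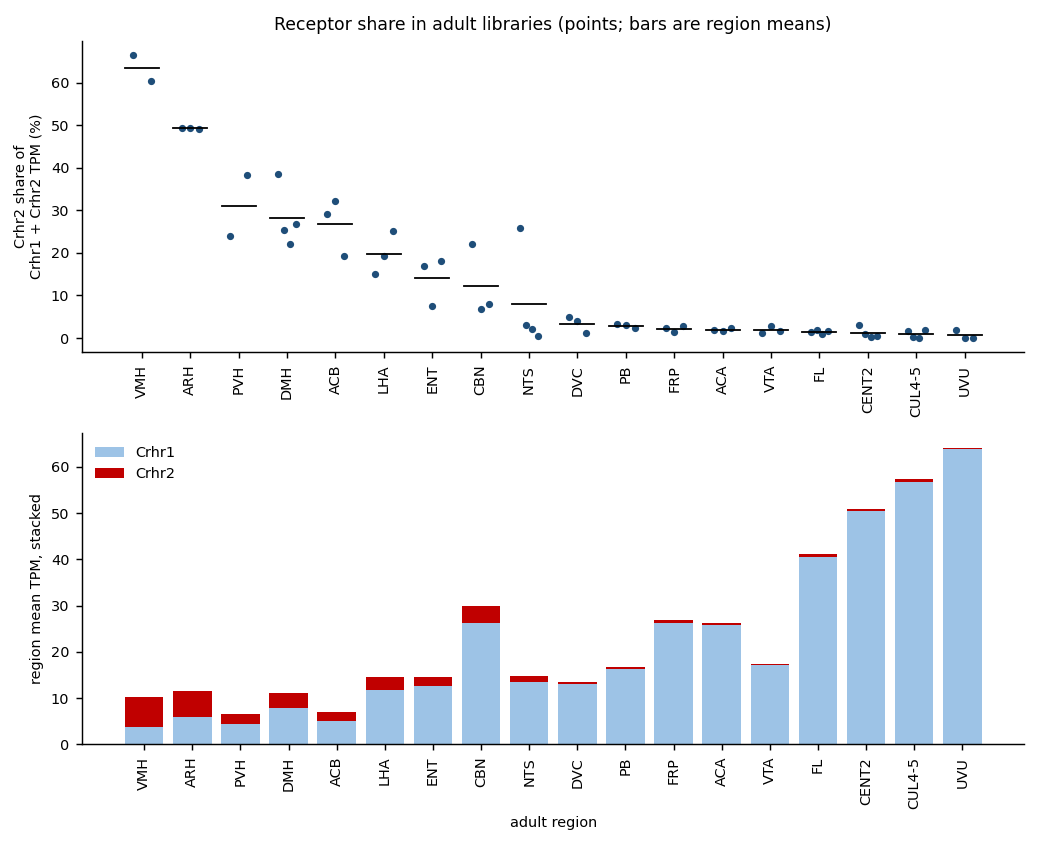
The upper panel gives the share of Crhr2 in Crhr1 plus Crhr2 (percent of TPM) in each adult library (points) with region means (bars), and the lower panel the stacked region means of both receptors (TPM), with regions in order of the share. The share falls from 63.5% in the VMH to 0.65% in the UVU, and the summed level is highest in the cerebellar cortex.

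Crhbp, which binds CRH and urocortin, was highest in the cerebral cortex. The ENT had 31.8, 30.6 and 33.2 TPM, above every other library of the data set, the ACA 19.5, 19.5 and 19.2 TPM and the FRP 17.02, 14.9 and 17.5 TPM. The DMH had 17.7, 17.3, 19.15 and 18.95 TPM. It lay just below the ACA, overlapped with the FRP and was above every other hypothalamic library, which had 3.36 to 11.5 TPM. With mitochondrial genes taken out of the totals, DMH 3 had 20.96 TPM and ACA 3 had 20.74 TPM, so that the DMH and ACA overlapped.

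Further down came the PB with 9.48, 6.95 and 11.7 TPM, the ARH with 11.5, 5.37 and 10.04 TPM, the VTA with 6.31, 12.6 and 6.69 TPM and the ACB with 3.78, 11.9 and 9.79 TPM. These 4 regions overlapped. In the cerebellar cortex the mean over its parts was 0.386 TPM, and only CENT2 1 (2.81 TPM) and FL 1 (1.19 TPM) passed 1 TPM.

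The cortex was higher in Crhbp than the other 15 adult regions by a log2 fold change of 3.27 ± 0.21 (edgeR adjusted p = 6.82e-20) and the cerebellar cortex lower than the other 14 by -4.98 ± 0.32 (edgeR adjusted p = 1.48e-19). Within the cortex the ENT did not pass (0.92 ± 0.42, edgeR adjusted p = 0.158), although its libraries did not overlap with those of the ACA and FRP. The hypothalamus was higher than the other adult regions by 1.41 ± 0.22 (edgeR adjusted p = 1.96e-07), a difference of the mean of logarithms to which the low cerebellar values contribute, since the plain means were 8.64 and 7.86 TPM. The PB was higher than the NTS and DVC by 2.41 ± 0.44 (edgeR adjusted p = 1.07e-04), with all PB libraries above the 7 others.

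Over all 18 adult regions, the differences between regions made up 95.3% of the variance of log2(TPM + 1) for Crhbp, 94.4% for Crhr1, 89.5% for Ucn3, 86.7% for Crh, 79.7% for Crhr2 and 75.2% for Ucn. The median over 17955 genes with at least 1 TPM in a region was 74.4%. Among the 6 this share was thus largest for the binding protein and the receptor Crhr1 and smallest for Ucn and Crhr2. It depends on the size of the differences between regions as well as on the spread within them. How closely libraries of a region repeat cannot be read from it alone.

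By comparison, the number of the 6 genes called was set beside the share of all 19980 genes called in the same test. Crh and Ucn3 were called higher in the PVH against the other nuclei, 2 of 6 genes where 2.03% of all genes were called, and Ucn3 alone in the VMH, where 1.47% were called. In the hypothalamus against the other adult regions 4 of 6 were called (Ucn3, Crhr2 and Crhbp higher, Crhr1 lower; 8.84% of all genes), in the cortex 2 (Ucn and Crhbp higher; 16.1%), and in the ENT against ACA and FRP 0 of 6 by edgeR (3.66%), with 3 of 6 at an unadjusted p under 0.05, 1 of 6 called by limma and 0 of 6 by DESeq2. For the cerebellar cortex 4 were called (Crhr1 higher, Crh, Crhr2 and Crhbp lower; 18% of all genes), for the CBN against it 4 (Crh, Ucn3, Crhr2 and Crhbp higher; 16.5%).

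In the hindbrain nuclei Crh alone was called (7.84% of all genes), and in the PB against NTS and DVC, Ucn3 and Crhbp (2.30%). The VTA had 3 of 6 (Ucn and Crhbp higher, Crhr2 lower; 10.5%) and the ACB 3 of 6 (Ucn3 and Crhbp higher, Crhr1 lower; 12.8%). Of these, the Crhbp calls in VTA and ACB fell under the fold threshold in limma at 0.94 and 0.86 on the log2 scale, and the ACB call was lost without ACB 2 (1.00, edgeR adjusted p = 0.0621). The Ucn3 call in the ACB stood on the 11 reads of ACB 3 and turned to -0.77 without it (edgeR adjusted p = 0.744), and that in the CBN stood on 6 reads in 3 libraries where the cerebellar cortex had none in 15, too few for a fold. Higher and lower refer here to means of logarithms, to which regions near 0 contribute. The plain means of Crhbp were 8.53 against 8.05 TPM for the VTA and 8.48 against 8.05 TPM for the ACB. Those of Ucn3 in the ACB (0.286 against 1.69 TPM) and of Ucn in the cortex (0.449 against 1.13 TPM) ran the other way. These comparisons share libraries, since each adult region also serves among the other adult regions.

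**Figure D4:**
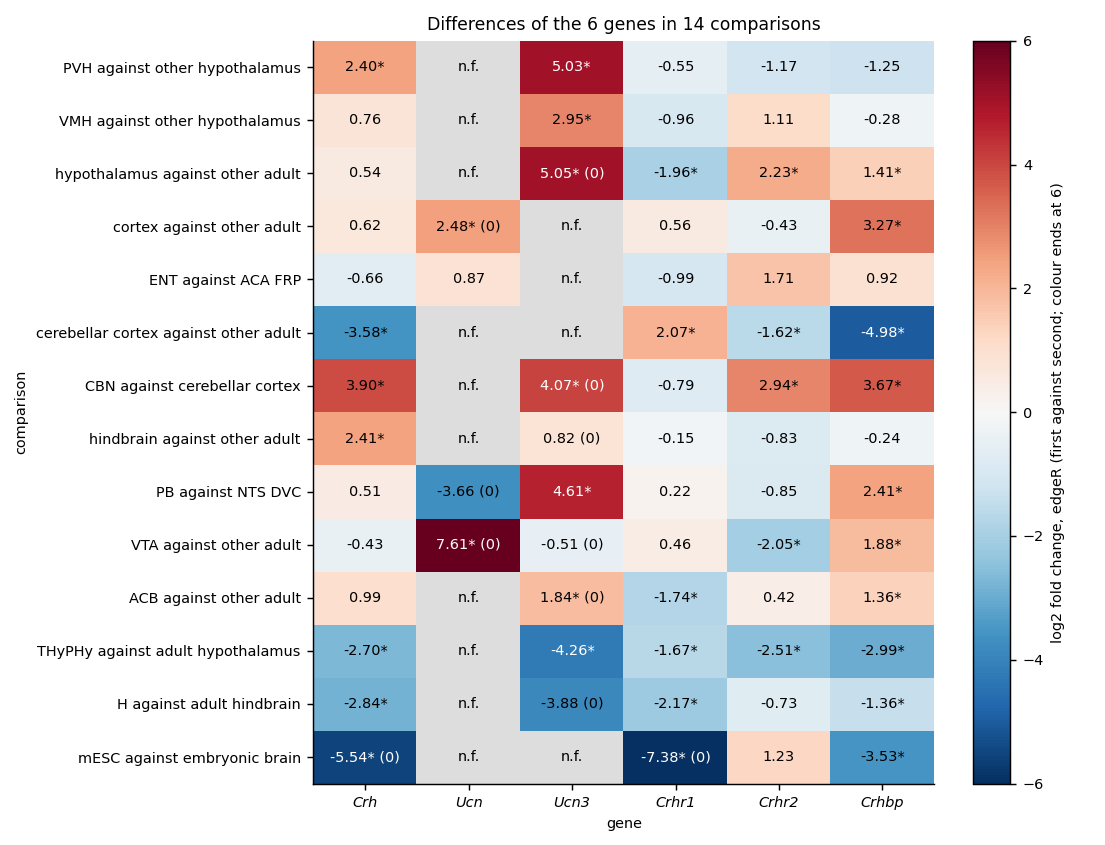
Fitted log2 fold changes (edgeR) of the 6 genes (columns) in 14 comparisons (rows), the first named group against the second, red for higher and blue for lower, with colours ending at 6. An asterisk marks a call, (0) marks a value that involves a region at 0 in every library and thus depends on the added count, and n.f. marks genes that could not be fitted for that reason. Ucn has a value in 4 of the 14 comparisons, and Crhr1 differs in sign between the hypothalamus (-1.96) and the cerebellar cortex (2.07).

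In the embryo the system was low. Against the adult hypothalamus, 5 of 6 genes were called lower in the THy-PHy, where 38.2% of all genes were called in either direction. Crh had 0.66, 0.51 and 0.75 TPM in the THy-PHy (log2 fold change -2.70 ± 0.64, edgeR adjusted p = 2.13e-04), Crhr1 2.74, 1.18 and 1.78 TPM (-1.67 ± 0.23, edgeR adjusted p = 5.24e-09), Crhr2 0.54, 0.60 and 0.68 TPM (-2.51 ± 0.74, edgeR adjusted p = 0.00234) and Crhbp 1.60, 0.82 and 0.43 TPM (-2.99 ± 0.54, edgeR adjusted p = 2.97e-06). For these 4 genes every embryonic library lay below every adult hypothalamic library. Ucn3 was also called (-4.26 ± 1.16, edgeR adjusted p = 0.00186), from 0, 1 and 1 reads in the embryo.

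In the embryonic hindbrain (H) 3 of 6 were called lower than in the adult PB, NTS and DVC, where 44.0% of all genes were called. Crh had 0.49, 1.87 and 2.66 TPM (-2.84 ± 0.60, edgeR adjusted p = 3.67e-05), Crhr1 1.16, 2.68 and 5.23 TPM (-2.17 ± 0.22, edgeR adjusted p = 1.23e-12) and Crhbp 0.52, 0.70 and 2.19 TPM (-1.36 ± 0.53, edgeR adjusted p = 0.0195). The lowest value of each was in H 1, the shallow library with 22.6% mitochondrial TPM. Without H 1 the Crhbp call was lost (-1.18, edgeR adjusted p = 0.0775), as it was without H 2. Adult, embryonic and stem cell samples were prepared in separate batches, so that stage and batch cannot be told apart.

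In the mESC lines Crh, Ucn and Ucn3 were at 0 in all 4 libraries. Crhr1 had 1 read in the 4 libraries together against 533 in the 9 embryonic libraries, a ratio per total count of 243 with a 95% exact (Clopper-Pearson) interval of 43.4 to 9610 that covers counting error only. The embryonic mean of Crh, 0.529 CPM, was at least 2.88-fold higher than the floor of 3 reads per mESC library. Crhr2 alone was read in each mESC library, at 0.93 and 0.37 TPM in B6-1 and 0.83 and 0.52 TPM in B6-2, on the level of the embryonic brain (0.23 to 0.82 TPM; log2 fold change 1.23 ± 0.65, edgeR adjusted p = 0.0783, DESeq2 1.41 with an adjusted p of 0.0428). Called lower than in the embryonic brain were Crh, Crhr1 and Crhbp, 3 of 6 where 55.8% of all genes were called, and the Crhbp call rests on 2 reads and was lost without B6-1 2 (-3.11, edgeR adjusted p = 0.0579) or B6-2 2 (-3.20, edgeR adjusted p = 0.0517).

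At the level of transcripts, Crh, Ucn3 and Crhr1 had 1 transcript each in the reference used by the authors. Ucn had 2, Ucn-201 and Ucn-202, which differ in where exon 2 begins. Of their words of 31 bases, only 34 of 474 in Ucn-201 and 29 of 469 in Ucn-202 tell them apart. In VTA 2 all 39.3 TPM were assigned to Ucn-201, while in VTA 1, VTA 3 and every library outside the VTA Ucn was assigned to Ucn-202, apart from values of Ucn-201 too small to count. The VTA libraries thus differed in the assigned transcript as well as in the level, and a test of this was not run.

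Crhbp had Crhbp-201 and Crhbp-202, with 2.93% and 7.26% of their words in only 1 of them. In the ENT Crhbp-202 had 22.1, 23.5 and 28.3 TPM and Crhbp-201 9.70, 7.07 and 4.85 TPM. In the ACA, by contrast, Crhbp-201 had 11.6, 8.24 and 5.21 TPM and Crhbp-202 7.94, 11.3 and 13.95 TPM, so that the larger one changed between libraries whose gene TPM ranged only from 19.2 to 19.5. The PVH was the adult region with over 1 TPM of Crhbp in which Crhbp-201 held the largest share, 80.8% of the gene, against 22.2% in the VMH and 22.1% in the DMH. These shares were unsteady within a region. In the DMH Crhbp-201 ran from 0.04 to 10.94 TPM between libraries with 17.29 to 19.15 TPM of the gene. Crhbp-202 had 0 to 1.44 TPM in the 2 PVH libraries. A difference in the shares between regions was not tested. Of 9 Crhr2 transcripts only Crhr2-201 reached a mean of 1 TPM in any region, with 4.48 TPM in the VMH and 3.59 TPM in the ARH.

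**Figure D5:**
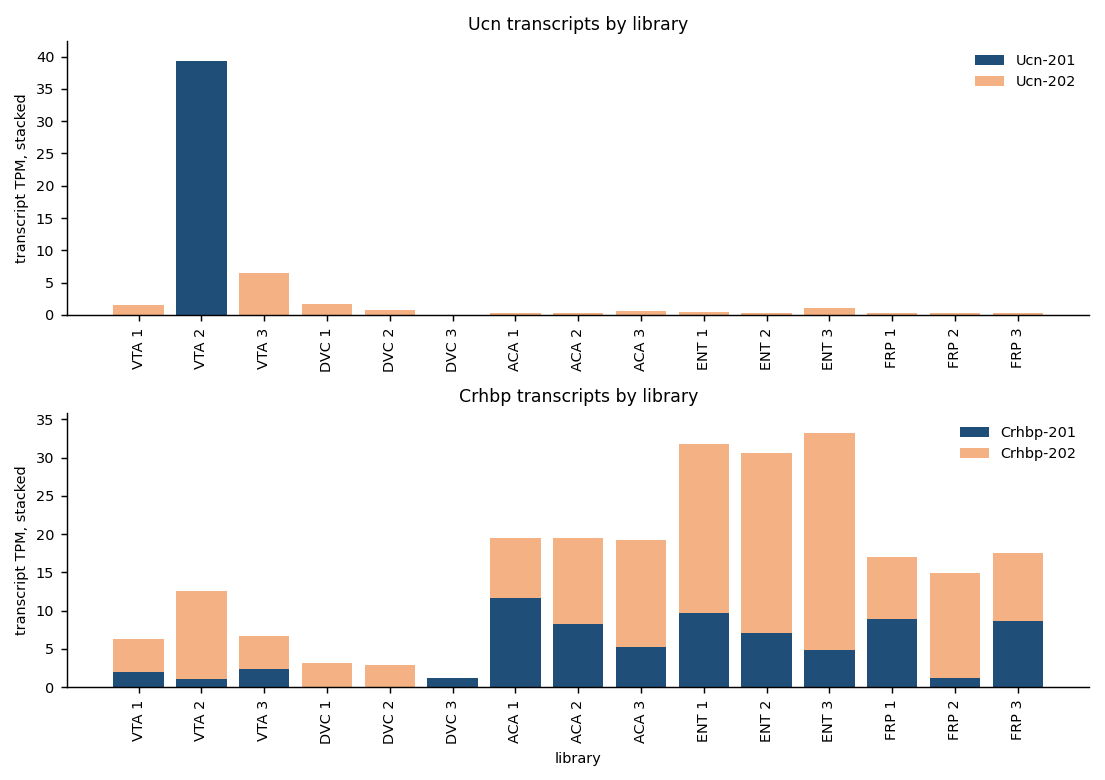
Stacked TPM (vertical axes) of the 2 transcripts of Ucn and of Crhbp in each library of the VTA, DVC and cerebral cortex (horizontal axes). Ucn-201 appears in VTA 2 alone (39.3 TPM), and the split of Crhbp varies between ACA libraries of nearly equal height.

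A list of 22 other genes around the system held the peptide-processing enzymes, the stress axis, transcription factors of CRH neurons and signalling proteins, of which 21 could be tested (all but Ucn2). In the PVH against the other nuclei, where 2.03% of all genes were called, 2 of the 21 were: Avp, the second hormone of these neurons, was higher (645 against 288 TPM, log2 fold change 2.81 ± 0.56, edgeR adjusted p = 7.17e-04) and Pomc, the precursor of corticotropin, lower (3.50 against 143 TPM, -2.31 ± 0.48, edgeR adjusted p = 7.13e-04). The 143 TPM of Pomc rested mostly on the ARH, with a mean of 551 TPM, and the VMH came next at 11.5 TPM. The ARH also had more Avp (865 TPM) than the PVH. Sim1, a factor needed for the PVH to form, had 3.96 and 2.38 TPM and did not pass (0.90 ± 0.42, edgeR adjusted p = 0.273). The median log2 fold change of the list was 0.09, beside -0.02 for all genes.

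In the VMH, where 1.47% of all genes were called, 0 of the 21 were called by edgeR (2 at an unadjusted p under 0.05) and 0 by DESeq2 and limma. There Cpe, which trims peptides after cleavage, had a log2 fold change of -0.51 (edgeR adjusted p = 1.91e-04). For the hypothalamus as a whole, with 8.84% of all genes called, Avp, Pomc, Sim1 and Otp were called higher and Hsd11b1, which regenerates corticosterone, lower (18.4 against 50.2 TPM, -1.15 ± 0.08, edgeR adjusted p = 1.19e-18). In the THy-PHy against the adult hypothalamus 14 of 21 were called, beside 38.2% of all genes. There the transcription factors Sim1 (14.48 against 2.70 TPM), Otp (149 against 27.5 TPM) and Pou3f2 (31.3 against 10.5 TPM), together with Creb1 and, by the mean of logarithms, Pomc, were higher, and 9 genes were lower, among them the processing enzymes Pcsk1 (2.58 against 33.3 TPM), Pcsk2 (15.2 against 122 TPM) and Cpe (528 against 1837 TPM) and both corticosteroid receptors Nr3c1 and Nr3c2. Crh was lower there while Sim1 and Otp, which specify its neurons, were higher.

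The genes whose region means ran most like each member were sought as a description, by Pearson's r across the 18 adult regions on log2(TPM + 1). The points share library preparation and depth. For Crh they were Mrps18a (r = 0.925), Nlrp5-ps (0.859) and Eps8l3 (0.857). For Crhr1 they were Pdcl (0.943), St8sia5 (0.940) and Sowahb (0.930), each highest in the UVU or CUL4-5. For Crhr2 they were Map3k15 (0.883), Vcam1 (0.857) and Tcaim (0.848), each highest in the ARH, and for Crhbp Syt17 (0.924), Mal2 (0.921) and Sstr2, a somatostatin receptor (0.917).

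The likeness rests on 1 region for the other ligands. Gm3511 (0.965), AC154343.1 (0.960) and Olfr1031 (0.959) were nearest to Ucn and highest in the VTA at 2.87 to 6.25 TPM, and Gm9001 (0.901), Rufy4 (0.862) and Gm14597 (0.862) were nearest to Ucn3 and highest in the PVH at 1.13 to 2.27 TPM. By ranks none of these 6 stayed among the 3 nearest genes, their places being 89 to 1936. Pdcl was first for Crhr1 and Mrps18a first for Crh by ranks too, but over the 22 adult and embryonic regions they fell to places 9515 and 335. Over those regions Nlrp5-ps fell to place 8045, Vcam1 to 3955, Sstr2 to 748, Tcaim to 679 and Eps8l3 to 154. St8sia5, Sowahb, Map3k15, Syt17 and Mal2 kept places from 1 to 11.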

How the data were processed

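RNA sequencing was measured in 57 adult, 9 embryonic and 4 mESC libraries. Per the labels and the study's methods, strand-specific mRNA libraries were read for 33 cycles (CASAVA 1.8.2), and the authors ran Kallisto on the GRCm38 cDNA. The deposited estimated counts are per transcript and not normalized between libraries; the deposited TPM are scaled within a library, per transcript and summed per gene by the authors. Here estimated counts were summed per gene over the 107987 of 109282 transcripts matched to GENCODE M21 and rounded; 0.418% to 0.767% of a library's counts fell on unmatched ones. For all 6 genes the matched transcripts gave the gene TPM.

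All 70 libraries were fitted together, a group per region, by the quasi-likelihood test of edgeR 4.0.16 (R 4.3.3) after TMM scaling and filterByExpr, with Benjamini-Hochberg adjustment over the 19980 genes tested. SEs are the log2 fold change over the root of the F statistic. The fit was tried on simulated counts for the PVH comparison alone. These had a common spread for all genes and changes in well-read genes only, so they do not cover genes near 0 such as Ucn. Receptor shares were tested by exact permutation (SciPy 1.17.1 in Python 3.11.15). P-values of the fits measure the spread between libraries within a region. Differences between the regions of one side do not enter them, so p-values over several regions are small by construction. Alternatives were DESeq2 1.42.0, limma 3.58.1 on log2(TPM + 0.5) or log2(TPM + 0.1), no filter, a replicate block, adult libraries alone, and each library left out. Members and lists were chosen with earlier results of these data known; similar genes were the 3 with the highest r per member among 17955 genes of at least 1 TPM in a region. Replicate numbers run within each region and do not tell which libraries share animals.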

Additional observations from a re-analysis of the deposited data

Results flagged for a closer look

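Of 24 groups of 4 libraries in which a gene was above 0, 3 had a library whose gap to the next exceeded Dixon's critical value for 4 samples. For normally distributed values chance flags about 1 in 20, a rate that need not hold for counts near 0. Crhr2 was 4.20 TPM in NTS 1 against 0.05 to 0.41 TPM in the other 3, the library with 10670 TPM of choroid plexus markers. Crhbp was 2.81 TPM in CENT2 1 against 0 to 0.24 TPM in the other 3, and the same library was highest of the 4 in Crh (1.35 TPM) and Crhr2 (1.34 TPM). Ucn was 0.287 TPM in FL 3, from 1 read, against 0 in the other 3, a pattern that the rule always flags.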

How the results depend on the processing

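Over the alternatives named in the methods, 384 of 410 member fold changes kept their direction and side of the threshold, as did 811 of 829 with 1 library left out. The replicate block changed no member's call, and with the block 2 members were called in the PVH, as without it. Libraries of equal number were hardly more alike than others (median correlation of deviations 0.0127 for equal numbers, -0.0057 for others). The numbers run within each region, so neither result can show whether libraries of different regions share animals or batches. The number of members called moved by over 1.5 times in these cases, becoming 1 (PVH) and 0 (VMH) and 1 (PB) by DESeq2, 1 in the cortex, ENT and ACB by limma on log2(TPM + 0.5), and 1 in the PVH, ENT and ACB, 2 in the hindbrain nuclei and 5 in the H by limma on log2(TPM + 0.1), and by less in others, such as the cerebellar cortex (5, from 4), CBN (3, from 4), VTA and ACB (2, from 3) and mESC (4, from 3) by DESeq2. With 1 library left out it ran from 1 to 2 in the PVH, 0 to 2 in the VMH, 0 to 1 in the ENT and 1 to 2 in the hindbrain nuclei, and the VMH difference in receptor share from 28.56 to 34.69 percentage points. Leaving out VTA, PVH and VMH libraries for the fold bounds of Ucn and Ucn3 was chosen after seeing the data. Directions turned for Ucn3 in the hindbrain nuclei (-0.10, limma + 0.5) and in the ACB (-0.24 and -0.10 by limma with 0.5 and 0.1), for Crhr2 in the PB (0.07, limma + 0.1) and for Crhr1 in the VTA (-0.16 in both limma fits). With 1 library left out they turned for Crhr2 in the PB (range -1.25 to 0.37) and in the H (-1.38 to 0.08), and for Ucn3 in the VTA (-0.09 to 0.02) and the ACB (-0.77 to 2.37). The causes were not tested. Counts over all genes moved by over 1.5 times in the VMH (189, from 294, by limma + 0.1), and by limma + 0.5 in the hypothalamus (1045, from 1767), cerebellar cortex (2386, from 3588) and hindbrain nuclei (840, from 1566), and were 211 without PVH 1 (from 406) and 95 without VMH 2 (from 294). Limma shifted the median of all genes in the VTA by -0.39 and in the mESC by -0.225. Leaving out each library on the side of the other adult regions was not run, apart from VTA 1. Depth limits Ucn and Ucn3, whose values outside the named regions rest on 0 to 11 reads.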

Other observations

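Over the 18 adult regions the members' levels were not alike, as a description over points that share library preparation and depth. Crhr1 and Crhr2 ran against each other (Pearson's r of log2(TPM + 1) -0.70, Spearman's rho -0.63), as did Crhr1 and Crh (-0.55 and -0.52), Crhr1 and Crhbp (-0.54 and -0.46) and Crhr1 and Ucn3 (-0.58 and -0.78). The parts of the cerebellar cortex, highest in Crhr1 and low in the other members, are among these points. Correlations without them were not computed. Crh and Ucn3 ran together (0.51 and 0.64).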
